A study of Cavia porcellus with 6 samples.

Results

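Genes of the contractile apparatus of skeletal muscle were read in RNA sequencing of the posterior pole of the guinea pig sclera, the fibrous white wall of the eye made mostly of collagen. The list named 43 genes of the sarcomere, of calcium handling and of energy supply, matched by gene symbol, and 38 of them were among the 32193 genes of the count table. The symbols Myh3, Myh7, Myh13, Mylpf and Cox6a2 matched no gene of the table and were not analysed under these names. A gene may stand in the table under another symbol, as Mylpf does as Myl11, given below outside the list. Right eyes were taken on day 28 of induction from 3 animals under form deprivation (FDM) and from 3 control animals (NC). Form deprivation keeps an eye from forming sharp images and makes it grow longer and myopic. All animals were guinea pigs (Cavia porcellus), for which the labels give no strain, age or sex, and no label mentions treatment with quercetin, which the series title names. As every library is a right eye, each was taken to be a separate animal. The labels do not say how the sclera was separated from adjoining tissue.

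Skeletal muscle shortens when myosin heads of the thick filament pull on actin in the thin filament, a step that troponin and tropomyosin permit once calcium leaves the sarcoplasmic reticulum. Most of these proteins exist in fast and slow forms encoded by separate genes, and the heavy chain of myosin is the usual marker of a fibre's type. The extraocular muscles, which attach to the outer surface of the sclera and turn the eye, are known in rodents and humans for mixing fast, slow, developmental and their own kinds of myosin. The genes were placed from textbook knowledge in a fast list (13 in the table), a slow list (10), a list shared by fibre types (14) and the neonatal heavy chain Myh8 alone. Myh13, the heavy chain that marks extraocular fibres, and Myh7, the heavy chain of slow fibres, were among the unmatched symbols. The genes are therefore called skeletal muscle genes below. Myh13 was not found by its symbol, and the list holds no other gene that marks extraocular fibres alone.

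The libraries held 10377397 to 17534982 counts. FDM 1 and NC 1 stood apart, with counts for 12783 and 14416 genes against 17689 to 20591 in the other 4 libraries. Levels are in CPM, counts divided by library sizes that were scaled by TMM, edgeR's trimmed mean of M-values. In bulk tissue, fewer muscle cells and less muscle RNA per cell cannot be told apart. Where values of 3 libraries of a group are listed, they stand in the order of libraries 1, 2 and 3. No gene lengths were used, so levels in CPM are compared between libraries and not between genes. Shares and ratios of genes within a library, given below, are of counts not corrected for length.

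Skeletal muscle RNA was abundant in 5 libraries and nearly missing from NC 1. Together the 38 genes took 10.4%, 10.4% and 2.4% of all counts in FDM against 0.204%, 4.01% and 6.08% in NC. Their summed level was 123075, 112699.8 and 24409.5 CPM in FDM against 2071, 33532 and 55509 in NC, or 86728 ± 54218 against 30371 ± 26859 CPM (mean ± SD, n = 3). FDM 1 and FDM 2 were the highest, FDM 3 lay below NC 2 and NC 3, and so the groups overlapped. For 38 of the 38 genes NC 1 was the lowest library, and FDM 1 was the highest for 20, FDM 2 for 12 and NC 3 for 6. NC 1 held 0 counts for 12 genes, where 0 counts allow a level of up to 0.294 CPM (3 counts). These were the heavy chains Myh2 and Myh4, the slow genes Myl2, Tnnc1, Tnni1, Casq2 and Myoz2, and Actn2, Neb, Mb, Myod1 and Myf6. No other library had a gene of the list at 0. Of the 26 genes with over 3 counts in NC 1, 18 were at least 10 times as high in the lowest of the other 5 libraries and 8 were less than 10 times as high there.

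**Figure D1:**
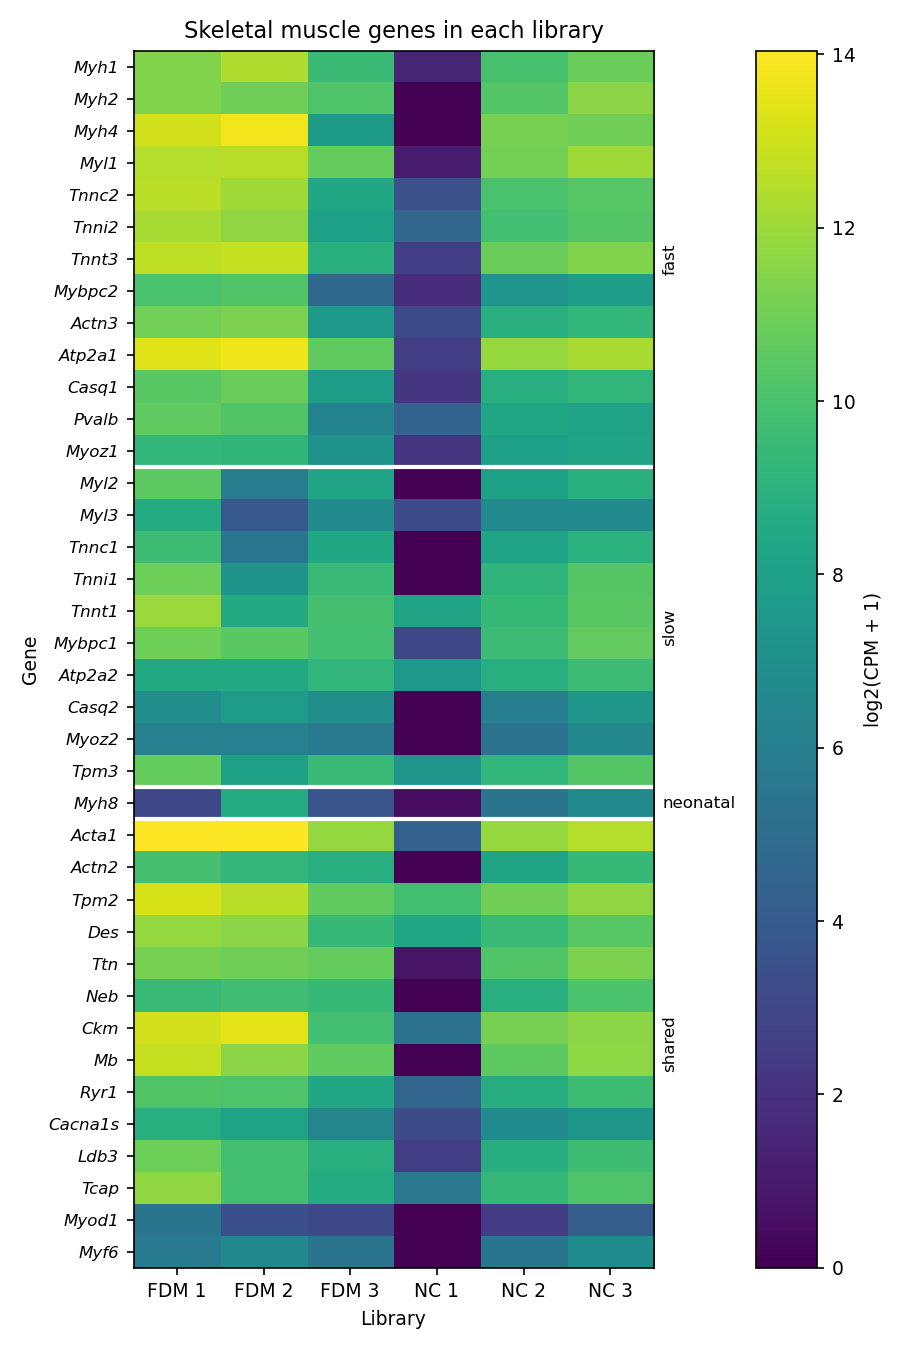
Level of each of the 38 skeletal muscle genes (rows, by list) in each library (columns), as log2 of CPM plus 1, from dark (low) to yellow (high). The NC 1 column is dark for nearly all genes, and 12 genes have 0 counts there.

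Acta1, the actin of the skeletal thin filament and a defining marker of the tissue, had 16517, 16850.5 and 3646 CPM in FDM against 19.9, 3571 and 5718 in NC. NC 1 stood 180 times below NC 2, the lowest of the others, while FDM 3 lay between NC 2 and NC 3. The genes of the list that smooth muscle, fibroblasts or other cells also use kept a higher level in NC 1. Tpm2, a tropomyosin of skeletal and smooth muscle, had 9247, 6214 and 1539.7 CPM in FDM against 872, 2030.5 and 3354 in NC. Des, the muscle intermediate filament desmin, had 3636, 3087 and 673 CPM in FDM against 326, 745 and 1368 in NC. Tpm3, a tropomyosin of slow fibres with forms in many cells, had 160.5 CPM in NC 1, and Atp2a2, the calcium pump of slow fibres and of most other cells, had 179. Without these 4 genes the summed level was 108172, 102779 and 20852 CPM in FDM against 534, 29695 and 48707 in NC, so that NC 1 fell further behind. Among the remaining genes, 4 had less than 10 times the NC 1 level in the lowest of the other libraries, with ratios of 1.32 for Tnnt1, 1.64 for Myl3, 4.04 for Pvalb and 8.45 for Tcap. Tnnt1, the slow troponin T, had 2997 counts (293 CPM) in NC 1, while its partners Tnnc1 and Tnni1 had 0 there.

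NC 1 was not low in smooth muscle or fibroblast markers. Acta2, the actin of smooth muscle, had 1136, 835 and 409.7 CPM in FDM against 2226, 296 and 1559 in NC, and Myh11, the smooth muscle heavy chain, had 1292, 544 and 424 CPM in FDM against 2071, 239 and 1422 in NC. The 13 smooth muscle markers summed to 4471, 2481 and 1594 CPM in FDM against 7303, 1168 and 4941 in NC, highest in NC 1, and 0 of them were at 0 counts in any library. The 9 fibroblast markers, led by the collagen genes Col1a1 and Col1a2, summed to 34461, 15623 and 60493 CPM in FDM against 52845, 5882 and 15202 in NC. Photoreceptor markers, 9 in the table, summed to 216, 1332 and 10609.7 CPM in FDM against 6817, 22329 and 432 in NC, and 3 of them, Pde6b included, were at 0 in FDM 1. Nerve and glia markers (9) summed to 2688, 5182 and 1244 CPM in FDM against 3586, 2799.9 and 7758 in NC, endothelial markers (7) to 2434, 1661 and 761 CPM in FDM against 1306, 585 and 1449 in NC, pigment epithelium markers (10) to 164, 80.3 and 496 CPM in FDM against 418, 315 and 185 in NC and fat markers (5) to 1019, 494 and 634 CPM in FDM against 553, 151 and 554 in NC. In FDM 1, 2 endothelial, 4 pigment epithelium and 1 fat marker were at 0, and in FDM 2, 1 pigment epithelium and 1 fat marker. Of the cardiac markers, Tnni3 lay at 31.3 to 48.4 CPM in all libraries and Mybpc3 at 0 to 0.786. The part of these tissues in the results below was not tested.

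**Figure D2:**
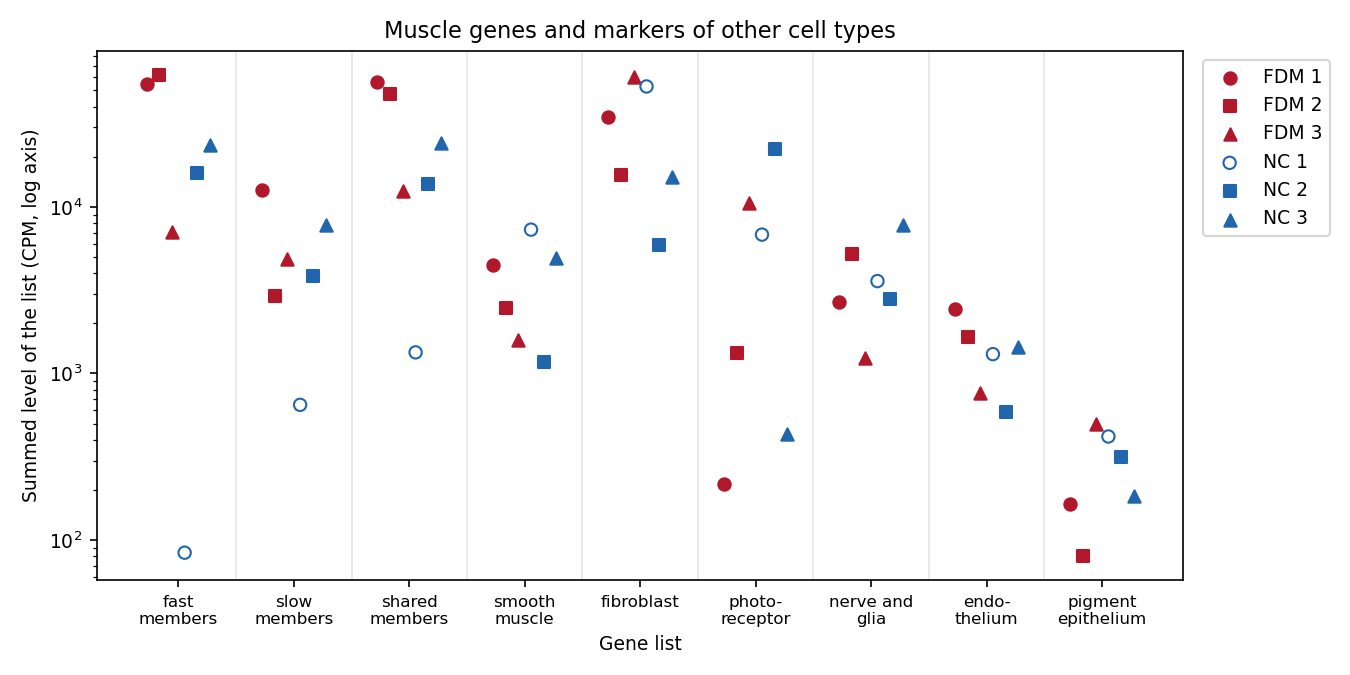
Summed level of each gene list (CPM, log axis) in each library, with FDM libraries in red, NC libraries in blue and NC 1 as an open circle. NC 1 is lowest in the 3 lists of skeletal muscle genes and highest in smooth muscle markers, and the groups overlap in every list shown.

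The fast genes were highest in FDM 1 and FDM 2 and, NC 1 aside, lowest in FDM 3. For 12 of 13 fast genes FDM 1 and FDM 2 lay above NC 2 and NC 3, and for 13 of 13 FDM 3 lay below them. Their summed level was 54512, 62082 and 7078 CPM in FDM against 84, 15899 and 23519 in NC. Atp2a1, the calcium pump of fast fibres, had 10364, 13209 and 1580.3 CPM in FDM against 4.79, 3668 and 4989.6 in NC. Myl1, an essential light chain of fast myosin, had 5695, 6009 and 1659 CPM in FDM against 1.17, 2179.6 and 4171 in NC, and Tnnt3, the fast troponin T that anchors troponin to tropomyosin, 6656, 7247 and 487 CPM in FDM against 4.99, 1874 and 2636 in NC. The FDM libraries lay on either side of NC 2 and NC 3 for each of these genes.

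The gap between FDM 2 and FDM 3 was uneven across the fast genes. It ran from 1.79-fold for the heavy chain gene Myh2 to 67.3-fold for the heavy chain gene Myh4. Mybpc2, the fast form of myosin binding protein C, which braces the thick filament, had 1022, 1186 and 25.2 CPM in FDM against 2.45, 164 and 229 in NC, a 47-fold gap between FDM 2 and FDM 3. The troponin genes Tnnc2, the calcium sensor, and Tnni2, the inhibitory subunit, had gaps of 12.8-fold and 12.9-fold. Pvalb, the calcium buffer parvalbumin of fast fibres, had 1549.9, 1190.4 and 81.1 CPM in FDM against 20.1, 309.9 and 272 in NC. Actn3, the Z-disc actinin of fast fibres, and Casq1, the calcium store protein calsequestrin of fast fibres, had FDM 2 levels 12.8 and 7.95 times those of FDM 3. For the Z-disc gene Myoz1 this ratio was 4.07.

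The 4 heavy chain genes in the table divided the libraries further. Myh4 encodes the fastest heavy chain (IIb), Myh1 the IIx form, Myh2 the slower and more oxidative IIa form and Myh8 the neonatal form. Myh4 had 8718, 13599 and 202 CPM in FDM against 0, 2325 and 2081 in NC, Myh1 2694, 5249 and 752 CPM in FDM against 1.76, 1008 and 1909 in NC and Myh2 2716, 2051 and 1147 CPM in FDM against 0, 1256 and 3093 in NC. As a share of the counts of these 4 genes in a library, Myh4 made up 61.7%, 63.9% and 9.56% in FDM against 50.2% and 29% in NC 2 and 3. Myh4 was thus the leading share in FDM 1, FDM 2 and NC 2, by counts not corrected for length, but not in FDM 3 or NC 3. Myh2 made up 19.2%, 9.63% and 54.3% in FDM against 27.1% and 43% in NC 2 and 3, the reverse order. Myh1 varied less, with 19.1%, 24.7% and 35.6% in FDM against 21.8% and 26.6% in NC 2 and 3. In FDM 3 the share of Myh4 had a 95% Wilson interval 9.26% to 9.88% and in NC 3 28.7% to 29.2%. Such intervals cover counting error only and leave out the spread between animals. Reads copied by PCR are not independent molecules, so the intervals may be too narrow even for counting error. In NC 1 the 4 genes held 22 counts, 18 of Myh1 and 4 of Myh8, too few for a composition. Myh4 and Myh2 held 0 of these 22, which allows shares of up to 14.9% (Wilson).

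Myh8 followed neither pattern. It had 73, 5403 and 194 counts in FDM against 4, 683 and 1980 in NC, or 7.2, 390.0 and 12.2 CPM in FDM against 0.391, 41.3 and 103 in NC. FDM 2 was the highest and FDM 1, which had the highest summed level of the 38 genes, held less Myh8 than FDM 3. The share of Myh8 among the heavy chain counts was 0.0509%, 1.83% and 0.576% in FDM against 0.892% and 1.44% in NC 2 and 3. The 4 heavy chain genes are close copies of each other, and reads that fit several of them may have been split or lost in counting, so their levels and shares are uncertain.

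**Figure D3:**
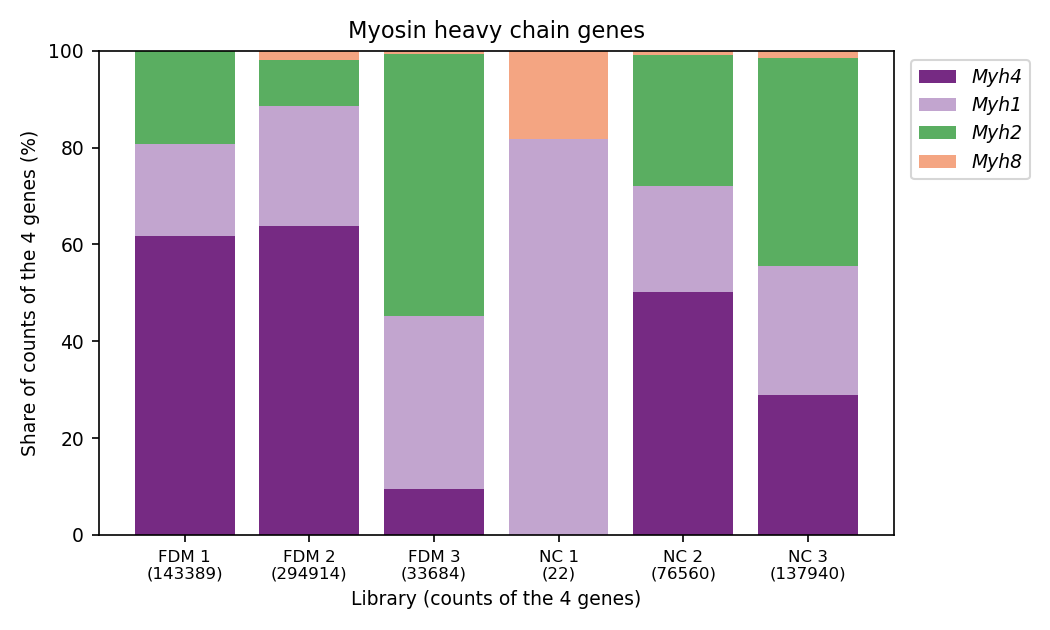
Share of each myosin heavy chain gene in the summed counts of the 4 genes in each library (bars, percent), with the summed counts in parentheses. Myh4 takes 9.56% in FDM 3 and 63.9% in FDM 2, and the NC 1 bar rests on 22 counts.

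The slow genes gave another order, with FDM 2, rich in fast genes, poor in most of them. For 6 of 10 slow genes FDM 2 was the lowest library after NC 1. The 6 were Myl2 and Myl3, the light chains of slow myosin, the slow troponins Tnnc1, Tnni1 and Tnnt1, and Tpm3. Tnni1, the slow inhibitory subunit, had 1999, 154 and 741 CPM in FDM against 0, 552 and 1274 in NC. FDM 1 held 13 times as much as FDM 2, while their Acta1 levels were 16517 and 16850.5 CPM. For Tnnc1, which senses calcium in slow fibres, with 809, 44.1 and 347 CPM in FDM against 0, 280.5 and 498 in NC, FDM 1 stood 18.3-fold above FDM 2. Myl2 had 1425, 59.5 and 291 CPM in FDM against 0, 253 and 476 in NC and Myl3 398, 13.3 and 110.5 CPM in FDM against 8.12, 103 and 108 in NC. Tnnt1 had 3849, 388 and 937 CPM in FDM against 293, 683 and 1418 in NC. For each of these 5 genes FDM 3, NC 2 and NC 3 lay between FDM 2 and FDM 1.

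For the other 4 slow genes FDM 2 was not the lowest library after NC 1, though for Atp2a2 it also lay below NC 2 and NC 3. Mybpc1, the slow form of myosin binding protein C, had 1932, 1372 and 909.6 CPM in FDM against 7.14, 801 and 1653 in NC, and Casq2, the calsequestrin of slow and cardiac fibres, 120.4, 209.8 and 119.9 CPM in FDM against 0, 64.5 and 169 in NC, with FDM 2 the highest. Myoz2, a Z-disc protein of slow and cardiac fibres, had 69.4, 68.7 and 56.5 CPM in FDM against 0, 40 and 93.2 in NC and differed little between the FDM libraries. Atp2a2 had 364, 368 and 612 CPM in FDM against 179, 464 and 804 in NC and was the only slow gene lower in FDM 1 than in all libraries but NC 1. The slow list thus covers genes with more than 1 pattern over the libraries.

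Shares of matched fast and slow forms within a library need no scaling between libraries. Over 4 pairs (Myl1 and Myl3, Tnnc2 and Tnnc1, Tnni2 and Tnni1, Tnnt3 and Tnnt1) the slow form made up 23.2%, 2.81% and 43.9% in FDM against 21.2% and 25.9% in NC 2 and 3. The share was lowest in FDM 2 (95% Wilson interval 2.75% to 2.87%) and highest in FDM 3 (43.6% to 44.3%), so the FDM libraries spread on either side of NC 2 and NC 3. NC 1 had 88.2% of 411 fast and 3080 slow counts, of which Tnnt1 gave 2997, and 18.7% without the troponin T pair, a choice made after seeing the data. The slow counts then left in NC 1 were 83 of Myl3, against 12 of Myl1, with 0 of Tnnc1 and Tnni1. Neither share of NC 1 is therefore read as a composition. The troponin I pair had a slow share of 29.8%, 4.46% and 74.5% in FDM against 37.5% and 50.3% in NC 2 and 3, the troponin T pair 36.6%, 5.09% and 65.8% in FDM against 26.7% and 35% in NC 2 and 3 and the troponin C pair 11.5%, 1.04% and 51.6% in FDM against 21.3% and 26.8% in NC 2 and 3. All 3 troponin pairs ranked the FDM libraries in the order FDM 3, FDM 1, FDM 2. The light chain pair Myl1 and Myl3 had 6.54%, 0.222% and 6.25% in FDM against 4.5% and 2.53% in NC 2 and 3, where FDM 1 and FDM 3 were close and NC 3 was lower.

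In the pairs of calcium pump, calcium store, Z-disc and thick filament genes, both FDM 1 and FDM 2 had a lower slow share than NC 2 and NC 3. Atp2a2 made up 3.39%, 2.71% and 27.9% in FDM against 11.2% and 13.9% in NC 2 and 3 of the pump pair, Casq2 7.85%, 10.5% and 34.8% in FDM against 12.8% and 22.1% in NC 2 and 3 of the calsequestrin pair and Myoz2 10%, 10.5% and 28.2% in FDM against 14.2% and 24.4% in NC 2 and 3 of the Z-disc pair. Mybpc1 made up 65.4%, 53.6% and 97.3% in FDM against 83% and 87.8% in NC 2 and 3 of the myosin binding protein C pair. Its share in FDM 2 stood far above the 1.04%, 4.46% and 5.09% of the troponin C, I and T pairs there. Slow shares are therefore compared between libraries and not between pairs. In these 4 pairs FDM 3 had the highest slow share of the 5 libraries, and FDM 1 and FDM 2 had the lowest. Atp2a2 made up 97.4% of its pair in NC 1, where Casq2 and Myoz2 had 0 counts. As most other cells also use Atp2a2, its share of the pair need not follow fibre type. For the Z-disc actinins, Actn3 of fast fibres had 2103, 2500.5 and 196 CPM in FDM against 7.53, 479.6 and 636 in NC, and Actn2, found in all fibres, had 937, 626 and 449 CPM in FDM against 0, 299 and 683 in NC.

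**Figure D4:**
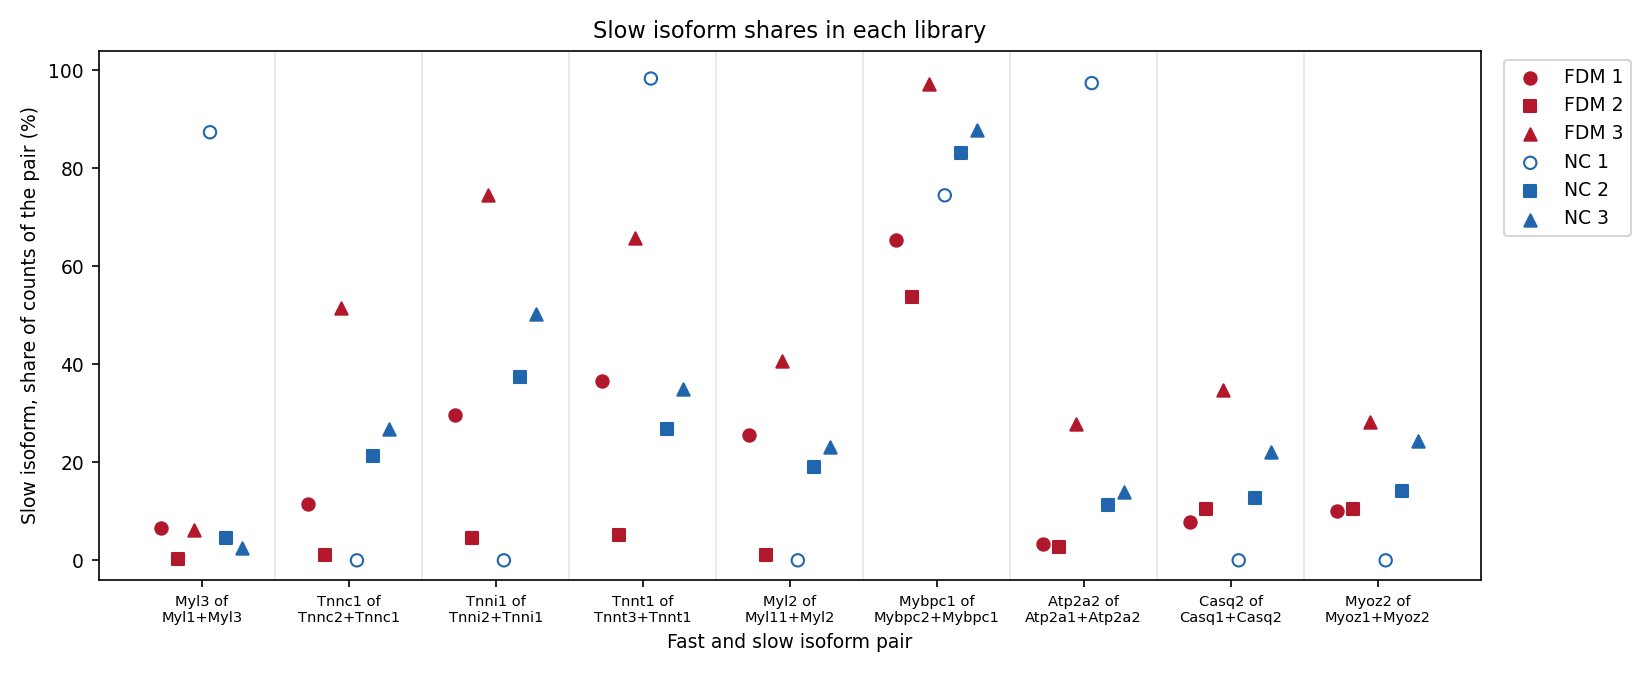
Share of the slow isoform in the counts of each fast and slow pair (percent) in each library, with FDM libraries in red, NC libraries in blue and NC 1 as an open circle. FDM 3 has the highest share of the 5 libraries with muscle RNA in 8 of the 9 pairs, and FDM 2 the lowest in the light chain and troponin pairs.

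Genes used by all fibres did not share a single order of the libraries. Ckm, the creatine kinase that restores ATP in muscle, had 8532, 11142 and 915 CPM in FDM against 36.5, 2272 and 3103 in NC, in the order of the fast genes. Mb, the oxygen store myoglobin of oxidative fibres, had 7065, 3145 and 1554 CPM in FDM against 0, 1528 and 3241 in NC, with FDM 1 highest and FDM 3 level with NC 2. Ttn, the titin spring of the sarcomere, and Neb, the nebulin that spans the thin filament, varied less, from 1196 to 2483 and from 439 to 1080.5 CPM outside NC 1. Ryr1, the calcium release channel, and Cacna1s, the voltage sensor that opens it, ran from 332 to 1199.8 and from 84.3 to 444 CPM in the same 5 libraries. Tcap and Ldb3, proteins of the Z-disc, had 3329 and 1960.2 CPM in FDM 1 and 911 and 917 in FDM 2. Of 14 shared genes, FDM 1 and FDM 2 lay above NC 2 and NC 3 for 7, and FDM 3 below them for 7.

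The myogenic transcription factors of the list had counts in every library but NC 1. Myod1, which commits cells to muscle, had 430, 138 and 116 counts in FDM against 0, 77 and 313 in NC, or 42.4, 9.96 and 7.28 CPM in FDM against 0, 4.66 and 16.3 in NC. Myf6, the factor kept on in mature fibres, had 53.6, 92.5 and 41.2 CPM in FDM against 0, 42.8 and 112 in NC. FDM 1 was highest for Myod1 and NC 3 for Myf6, and both had 0 counts in NC 1.

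FDM was then compared with NC, to ask whether muscle genes of the sclera samples differ after form deprivation. Acta1 stood at 12338 ± 7529 CPM in FDM against 3103 ± 2878 CPM in NC (mean ± SD, n = 3), and its log2 fold change was 1.99 ± 1.50 (± SE). Of the 38 genes, 37 had a log2 fold change above 0, where 51.2% of the 16348 genes tested had one, and their median was 1.33 against 0.02 for all genes. None passed: edgeR's quasi-likelihood test called 0 of 38 at an adjusted p below 0.05 (0% of all genes higher and 0% lower), 0 at an unadjusted p below 0.05 (0.954% of all genes), the smallest unadjusted p being 0.0918 for Des. On the same genes DESeq2 called 0 of 38 (0.0551% of all genes), and 4 of 38, Des, Mybpc2, Pvalb and Tpm2, had an unadjusted p below 0.05 (1.72% of all genes). On all genes with a count it called 0 of 38 (0.111%), and Des alone had an unadjusted p below 0.05 (2.16%). With limma-voom 0 were called (0%) and 0 had an unadjusted p below 0.05 (1.03%). With no filter on low counts edgeR also gave Des alone such a p (1.63%). The groups were free of overlap for 0 of the 38 genes with FDM higher (2.73% of all genes) and for 0 with FDM lower (2.81%). With 3 libraries a group, the smallest two-sided p of an exact permutation test on any gene is 0.1. No difference in the 38 genes was thus shown beyond the spread between libraries. A p-value here sets a difference against the spread as estimated from these 6 samples alone.

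The size of the difference depended on single libraries. Without NC 1 the median over the 38 genes was 0.76, with 32 above 0 (47.2% of all genes). Without FDM 1 it was 0.82, with 32 above 0, where the median over all genes was 0.06. Without NC 3 it was 2.06. Without both libraries numbered 1 it was 0.17, with 22 of 38 above 0 (45.7% of all genes). In each of these fits edgeR called 0 of the 38 genes and 0 of all genes, and 0 of the 38 had an unadjusted p below 0.05. Over all genes, 0.841% had such a p without NC 1 and 240 of 17681 without FDM 1. Without NC 3 it was 338 of 17144, and without FDM 1 and NC 1 226 of 17526. Without FDM 3 the median was 1.69 and edgeR called 0 of the 38 (0% of all genes), while 2, Des and Pvalb, had an unadjusted p below 0.05 (3.13% of all genes). The fast genes had a median of 1.72, with 13 of 13 above 0, and 1.13 without NC 1 and 0.81 without both libraries numbered 1. The slow genes had a median of 0.72, with 9 of 10 above 0, but 0.13 without NC 1, -0.25 without FDM 1, 1.60 without NC 3 and -0.78 without both libraries numbered 1, where 1 of 10 was above 0. For the shared genes the median was 1.37, 0.80 without NC 1, 0.71 without FDM 1 and 0.06 without both. With total-count scaling, which moved the median of all genes from 0.02 to -0.23, the median over the 38 genes was 0.97 and 36 were above 0.

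Among single genes the estimates ran from -0.11 for Atp2a2 to 2.50 for Mybpc2, with standard errors of 0.61 to 2.29. Pvalb stood at 940.5 ± 766 CPM in FDM against 201 ± 158 CPM in NC (mean ± SD, n = 3), and its log2 fold change was 2.23 ± 1.19 (± SE). Des stood at 2465 ± 1576 CPM in FDM against 813 ± 525 CPM in NC (mean ± SD, n = 3), with a log2 fold change of 1.60 ± 0.85. Myh4 had 2.35 ± 2.29, and 1.76 without NC 1. Myh2, with 0.44 ± 1.95, had -0.15 without NC 1, and Myh8, with 1.50 ± 1.85, had -2.32 without FDM 2. Tnni1 and Tnnc1 had 0.66 ± 1.98 and 0.62 ± 1.88, and -0.45 and -0.41 without FDM 1. Atp2a2, at -0.11 ± 0.61, had 0.02 without FDM 1, 0.01 without FDM 2 and 0.37 without NC 3. The estimates for the slow genes thus depended on which library stood in the group, and none of these genes passed in any of the fits.

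**Figure D5:**
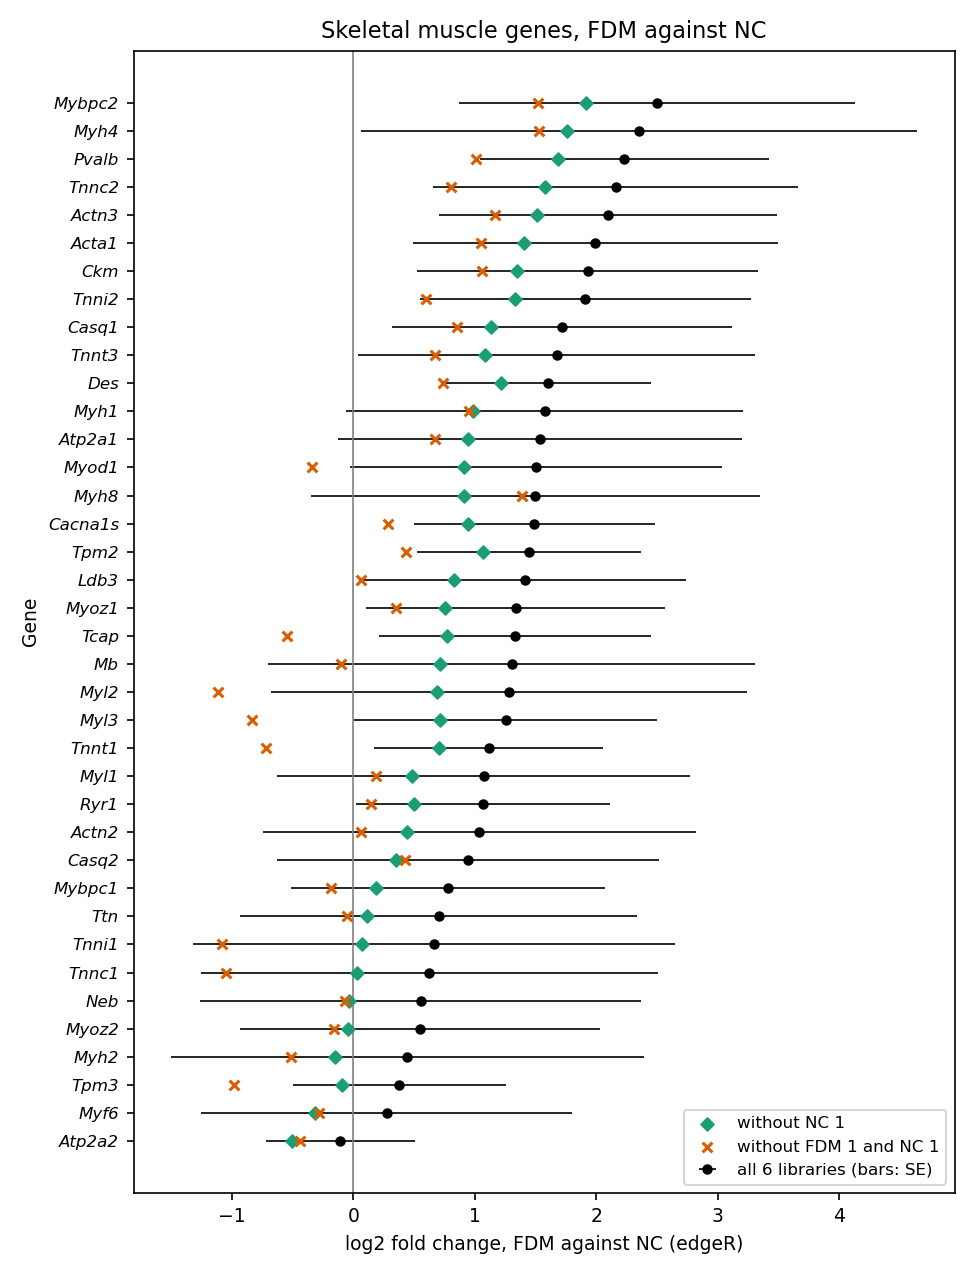
Log2 fold change of FDM against NC for each of the 38 genes (edgeR), with all 6 libraries (black, bars are SE), without NC 1 (green) and without FDM 1 and NC 1 (orange crosses). Leaving out NC 1 moves the median from 1.33 to 0.76, and leaving out both moves it to 0.17.

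Related muscle genes outside the list followed the same libraries. Of 46 further sarcomere and Z-disc genes in the table, 39 were lowest in NC 1, and 20 had 0 counts there. Of these, 45 were tested, 0 passed edgeR's test in either direction and 39 had a log2 fold change above 0, with a median of 0.78 and 0.29 without NC 1. The 3 of smallest p were Myom2, which links thick filaments in the M-band, at 2.33 ± 1.02, the actin crosslinker gene Flnc at 1.35 ± 0.90 and the myosin light chain kinase gene Mylk2 at 2.10 ± 1.39 (log2 fold change ± SE). Myl11, the current symbol of Mylpf and a regulatory light chain of fast myosin, had 4132, 5413 and 424 CPM in FDM against 8.9, 1081 and 1586 in NC, in the order of the fast genes. Against Myl2 the slow share was 25.6%, 1.09% and 40.7% in FDM against 18.9% and 23.1% in NC 2 and 3.

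Of the 46 further sarcomere and Z-disc genes, 3 had FDM 2 as the lowest library after NC 1. These 3, of slow or specialised fibres, were named after their values were seen. Myl6b, an essential light chain of slow muscle, had 2669.6, 249 and 569 CPM in FDM against 28.9, 476 and 1079 in NC. Myh7b, a slow-type heavy chain known from extraocular muscle in rodents and humans, had 1664, 91.4 and 418 CPM in FDM against 51.6, 187 and 766 in NC. Myh15, another heavy chain known from extraocular muscle in these species, had 1012, 9 and 626 counts in FDM against 0, 771 and 4015 in NC, or 99.8, 0.65 and 39.3 CPM in FDM against 0, 46.6 and 209 in NC. NC 3 was highest for Myh15 and FDM 1 for Myl6b and Myh7b. The light chain gene Myl4, also of the 46, was instead highest in FDM 2. It had 0, 69.2 and 0.314 CPM in FDM against 4.5, 0.423 and 7.19 in NC.

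Genes of excitation and contraction coupling and of the nerve-muscle junction, 36 in the table, were lowest in NC 1 in 27 cases. All 36 were tested, 0 passed in either direction and 32 lay above 0, with a median of 0.70 and 0.37 without NC 1. The 3 of smallest p were Cacnb1 and Cacng1, subunits of the voltage sensor, at 1.29 ± 0.64 and 2.78 ± 1.45, and Trdn, which ties the calsequestrin store to its channel, at 1.97 ± 1.07. Muscle energy genes had 19 of 20 lowest in NC 1, with 0 of 20 past the test, 18 above 0 and a median of 0.77 (0.31 without NC 1). Here the smallest p were those of the adenylate kinase gene Ak1 at 1.13 ± 0.76, the glycogen phosphorylase gene Pygm at 1.74 ± 1.26 and the phosphorylase kinase gene Phkg1 at 0.92 ± 0.74. Myogenic regulators, many of them also used outside muscle, were lowest in NC 1 for 8 of 23, with 0 of 21 past the test, 16 above 0 and a median of 0.56 (0.31 without NC 1). Six4, Tead4 and Vgll3, transcription factors and a cofactor, had 1.68 ± 0.91, 1.08 ± 0.61 and 2.30 ± 1.75. Six4 had 9.46, 7.15 and 43.7 CPM in FDM against 7.24, 5.08 and 6.46 in NC, high in FDM 3 alone, and its estimate was 0.35 without that library. Vgll3 had 12.6, 6.57 and 7.09 CPM in FDM against 0, 1.27 and 4.01 in NC, so that the groups did not overlap (2.73% of all genes with FDM higher), the only such gene of these 4 lists. Across all genes 0.954% had an unadjusted p below 0.05, and of these 4 lists 0 genes did.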

How the data were processed

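Per the labels' protocols, Trizol extraction was followed by library preparation with the NEBNext Ultra kit. The authors deposited raw read counts per gene, 1 column per library. Per the submitters' processing notes, Trimmomatic, STAR and HTSeq were used. The sources used here give no versions, strandedness, build or annotation, so overlapping genes and close copies may share reads.

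The members and lists were chosen with earlier results of these data known. Of the 38 genes found, 38 matched a symbol of the RefSeq table of the guinea pig, used for names only. Counts were analysed with edgeR 4.0.16 in R 4.3.3 (filterByExpr, TMM, robust quasi-likelihood fit, design of group alone, Benjamini-Hochberg adjustment over 16348 genes, called below 0.05). SE is the absolute log2 fold change over the square root of F. DESeq2 1.42.0, limma 3.58.1 (voom), other scalings and filters, the replicate number as a block and each library left out were alternatives. The fits were tested on simulated data with less variation between libraries than these data had (common biological coefficient of variation 0.933). That test therefore does not bear on the power to call genes here. Values in every library are given for the heavy chains, Acta1, the leading genes of each list, matched isoform pairs and Myod1 and Myf6, with related lists by their 3 smallest p. Figures were drawn with matplotlib 3.10.9. Replicates are taken as separate animals, and the labels name no batch. Precision is given as SD and SE, and depth with the results. No sequence was printed, since none was used here.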

Additional observations from a re-analysis of the deposited data

How the results depend on the processing

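Of all genes, 0 were called by edgeR in every setting run, while DESeq2 called 9 on the filtered genes and 25 on all genes with a count, none of them among the 38. The cause was not tested. The median over the 38 genes was 1.33 and ran from 0.76 to 2.06 with single libraries left out, and 0 of the 38 were called in any setting. With limma-voom the median was 2.73, the highest of any setting, with Acta1 at 3.99, Myh2 at 4.44 and Myh8 at 0.39. The main fit gave these genes 1.99, 0.44 and 1.50, so the size of the estimates depended on the method. The replicate number as a block gave a median of 1.79 and 0 calls. Same-numbered libraries deviated together with r of 0.0951, 0.0335 and -0.152 across genes, and FDM 3 went best with NC 2 (0.261). Deviations from a mean of 3 libraries are not independent, so these r cannot settle whether same-numbered libraries were pairs. Of the 28 genes named by the rule, 10 changed sign without both libraries numbered 1: Myh2 -0.52, Tnnt1 -0.72, Mybpc1 -0.18, Tnni1 -1.08, Myl3 -0.83, Tnnc1 -1.05, Myl2 -1.11, Myoz2 -0.16, Myod1 -0.34 and Myf6 -0.29 (log2 fold change). Atp2a2 went from -0.11 to 0.13 with limma-voom and 0.09 with the replicate block, and Myf6 to -0.026 with total-count scaling. Single libraries left out gave Myh2 -0.15 to 1.51, Myh8 -2.32 to 2.56, Tnnt1 -0.27 to 1.72, Tnni1 -0.45 to 1.67, Myl3 -0.24 to 1.79, Tnnc1 -0.41 to 1.37, Myl2 -0.47 to 2.09, Atp2a2 -0.51 to 0.37, Myoz2 -0.045 to 1.55 and Myf6 -0.32 to 1.39. The slow share of NC 1 fell to 18.7% without the troponin T pair, since Tnnt1 gave most of its slow counts. The slow counts left were those of Myl3 alone, so this share is not read as a composition. Shares corrected for coding length were not run, as no lengths were used.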

Other observations

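Counts of the giant sarcomere genes relative to Acta1 divided the 5 libraries with muscle RNA into high and low. Per 100 Acta1 counts, Ttn had 13.7, 12.1 and 46.1 in FDM against 33.5 and 43.4 in NC 2 and 3, and Neb had 4.32, 4.97 and 18.6 in FDM against 12.3 and 18.9 in NC 2 and 3. FDM 1 and FDM 2 were the low ones for both genes, although they differed in their slow genes. Mb, which marks oxidative fibres, had 42.8, 18.7 and 42.6 in FDM against 42.8 and 56.7 in NC 2 and 3, with FDM 2 alone low. Ckm had 51.6, 66.1 and 25.1 in FDM against 63.6 and 54.3 in NC 2 and 3, with FDM 3 alone low. Myf6 had 0.325, 0.549 and 1.13 in FDM against 1.2 and 1.96 in NC 2 and 3. Ryr1 had 7.26, 6.78 and 9.11 in FDM against 12.1 and 14.4 in NC 2 and 3, with FDM 3 also low. Tcap had 20.2, 5.41 and 11 in FDM against 18.2 and 20.2 in NC 2 and 3. For Myod1 the values were 0.257, 0.0591 and 0.2 in FDM against 0.13 and 0.285 in NC 2 and 3. The division seen for Ttn and Neb was thus not that of Ryr1, Tcap or Myod1. These ratios were chosen after the data were seen and are given as values, with no test.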
